A study of Mus musculus with 12 samples.

Results

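How bone marrow B cells that lack HIF-1α respond to low oxygen was described from 6 of the 12 RNA-seq libraries of the series, 3 of KO cells cultured under hypoxia and 3 of KO cells cultured under normoxia, over all 17506 genes with enough reads. KO mice carried Hif1a f/f alleles and Mb1-cre, a driver in the Cd79a locus that is active in the B lineage, so other cells that came through the purification kept Hif1a. The other 6 libraries, 3 under each condition, came from WT mice and served where the responses of the genotypes were compared; the study's methods give controls as littermates without Cre or with Mb1-cre alone. All cells were B cells purified from bone marrow with magnetic beads. Neither age nor sex is labelled, and no source states whether each of the 3 libraries in a group is another mouse. A p-value therefore describes the spread of these libraries, which may be technical.

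HIF-1α is the subunit of a transcription factor that prolyl hydroxylases mark for destruction while oxygen is present. When oxygen falls it pairs with the stable subunit encoded by Arnt and binds short DNA elements, the hypoxia response elements, beside genes for glycolysis, lactate handling, mitophagy and vessel growth. A related subunit, HIF-2α, encoded by Epas1, binds the same core sequence. Low oxygen also acts on cells through routes that need no HIF, among them translation control, the ATF4 pathway and redox signalling.

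Fold changes are log2 values of hypoxia over normoxia, given with their standard error (SE) from 3 against 3 libraries. Levels of single genes are CPM, counts scaled by library size and TMM factors. Sums over marker lists and over haemoglobin, Y-linked and mitochondrially encoded genes are CPM scaled by library size alone. A gene was called at a Benjamini-Hochberg adjusted p below 0.05 over all genes tested, from the quasi-likelihood test of edgeR, and "rose" and "fell" are used of called genes only. The KO libraries held 29018747 to 36880082 counts. Some of them stood apart. KO normoxia library 1 held the most haemoglobin reads (2573 CPM against 154 to 681 in the others), KO normoxia library 3 had a count in the most genes (27542, against as few as 21912), and KO hypoxia library 1 carried 46.0 CPM of 4 Y-linked genes that had no read in the other 5. Reads of cells that the beads should have left behind were present too: summed CPM of 11 neutrophil markers was 1233, 2499 and 4255 under normoxia and 3458, 2945 and 4269 under hypoxia, which overlap. No marker of any cell type list was at 0 throughout a group.

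The targeted gene came first. Hif1a (ENSMUSG00000021109, chromosome 12, 73901375 to 73947530 on GRCm38) had 114, 109 and 110.0 CPM in KO normoxia against 136, 127 and 120.1 in KO hypoxia. Its difference of 0.20 ± 0.10 was not called with all 12 libraries (edgeR adjusted p = 0.15, 95% interval -0.02 to 0.41) but was with the KO libraries alone (edgeR adjusted p = 0.0355). These reads fall on the whole gene, remaining exons included, and so say nothing of the deletion. Cd79a (ENSMUSG00000003379, chromosome 7, 24897381 to 24902197), whose locus carries the Cre, had 31560, 22363 and 23742 counts in the KO normoxia libraries and 25684, 25935 and 24170 after hypoxia. Every WT library was above all of these, at 44132 to 61561 counts, and in KO the conditions did not differ beyond the replicate spread (-0.04 ± 0.10, edgeR adjusted p = 0.795).

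Without HIF-1α in the B lineage, hypoxia still changed 5296 of the 17506 genes tested (30.3%), of which 2540 (14.5%) rose and 2756 (15.7%) fell. The counts of called members of each gene list below are to be read beside these shares. In WT the same test called 4862 genes (27.8%), 2003 higher (11.4%) and 2859 lower (16.3%). Of the genes that rose in WT, 68.0% also rose in KO, and these made up 53.6% of the genes that rose in KO. Of those that fell in WT, 66.5% fell in KO, or 69.0% of the KO list. Opposite calls were rare, with 7 genes up in KO and down in WT and 3 the other way. Across genes the log2 fold changes of the genotypes, which share no library, had a Pearson r of 0.766 and a Spearman rho of 0.757, a description over genes that are not independent. Most changes were small: 819 risen and 804 fallen genes were estimated at more than 2-fold, and 100 and 277 passed a test against a 2-fold change. Without replicate 1 of both KO groups, the libraries with the Y-linked and the haemoglobin reads, 2706 genes were called (1016 higher and 1690 lower), a fit added after seeing the data.

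**Figure D1:**
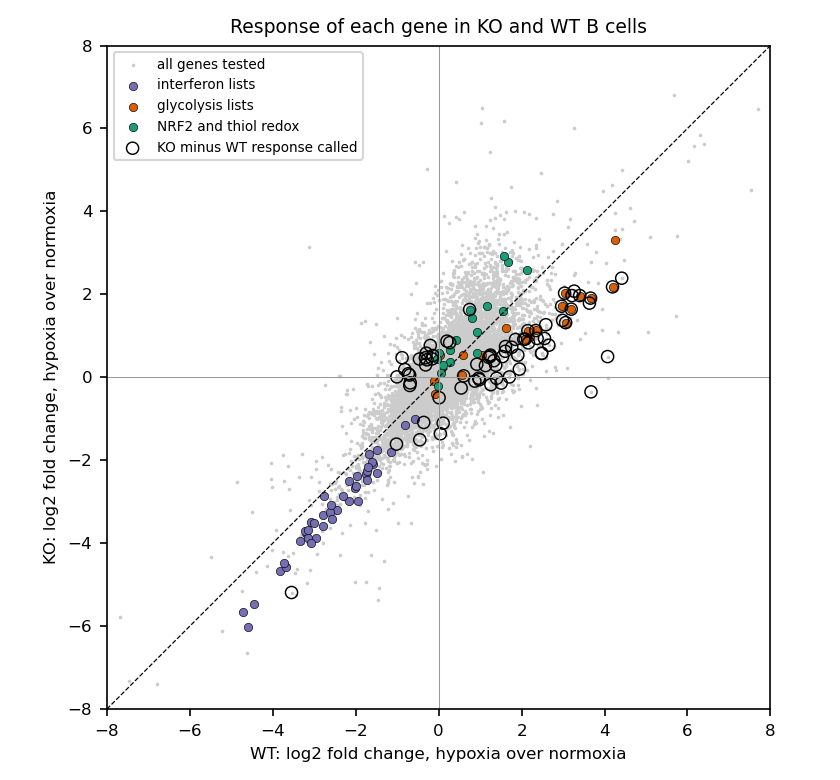
Each point is 1 of 17506 genes, with its log2 fold change (hypoxia over normoxia) in WT on the x axis and in KO on the y axis; the dashed line marks equal responses, colours mark the interferon, glycolysis and NRF2 lists, and circles mark the 73 genes whose responses were called different. Most glycolysis genes (orange) lie right of the line, rising less in KO than in WT, and the interferon genes (violet) lie at the lower left, falling in both.

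Part of the oxygen-sensing machinery rose in KO cells. Of 15 tested HIF subunits and oxygen-sensing genes, 5 rose and 0 fell, with a median log2 fold change of 0.30 against 0.04 over all genes tested. Egln3, a prolyl hydroxylase that marks HIF-α for degradation, had 3.99, 5.07 and 3.25 CPM in the KO normoxia libraries and 54.3, 50.9 and 88.2 after hypoxia. Every hypoxia library held more than 10 times the level of any normoxia library. The rise was 3.97 ± 0.31 (edgeR adjusted p = 5.62e-06) beside 4.26 ± 0.30 in WT, and the difference of the responses, -0.29 ± 0.40, had a 95% interval of -1.17 to 0.60. Egln1, the main oxygen sensor of that family, rose by 1.29 ± 0.16, and Egln2 by 0.45 ± 0.08. Epas1, which encodes HIF-2α, had 2.71, 2.08 and 2.14 CPM under normoxia and 4.34, 6.13 and 3.79 under hypoxia, low in every library but with no overlap, and rose by 1.03 ± 0.22 (edgeR adjusted p = 0.00328). On a list of 11 genes tied to HIF-2α in other cells 4 rose and 1 fell, with a median of 0.56. The metal transporter Slc11a2 was among those that rose (0.56 ± 0.09). Ccnd1, which encodes cyclin D1, was the one that fell, from 94.9, 96.3 and 83.8 CPM to 30.3, 29.4 and 40.6 (-1.45 ± 0.14).

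The largest rises were in genes nearly silent under normoxia. Ankrd37, an ankyrin-repeat gene known as a HIF target, had 0.307, 0.382 and 0.276 CPM in the KO normoxia libraries and 14.2, 15.4 and 18.4 after hypoxia. WT went from 2.24, 1.93 and 1.33 CPM to 159, 158 and 143, so that KO lay below WT in both conditions with no overlap. The rise was 5.62 ± 0.20 in KO (edgeR adjusted p = 4.49e-09) and 6.40 ± 0.17 in WT, and the difference of -0.77 ± 0.31 was not called (edgeR adjusted p = 0.405). Rgs11, a regulator of G protein signalling, went from 0.195, 0.139 and 0.380 CPM to 11.1, 9.64 and 20.4 (5.84 ± 0.46). Ak4, a mitochondrial adenylate kinase, went from 0.223, 0.416 and 0.276 to 11.8, 9.45 and 22.6 CPM (5.58 ± 0.50). Both ended highest in KO hypoxia library 3. Vldlr, a lipoprotein receptor, rose by 4.64 ± 0.49 beside 4.18 in WT, and Dnm1, which encodes a dynamin, by 3.78 ± 0.45. Mgarp, which encodes a mitochondrial protein, had 2, 2 and 7 counts in the KO normoxia libraries and 68, 52 and 143 after hypoxia, and rose by 4.52 ± 0.60 beside 7.53 in WT. A few of the largest folds rested on few reads. P4ha2, a collagen prolyl hydroxylase, had 1, 2 and 5 counts under normoxia against 78, 33 and 203 under hypoxia (5.22 ± 0.81), and the metallothionein gene Mt2 had 1, 2 and 3 against 26, 23 and 59 (4.07 ± 0.55). Mmp12, a macrophage elastase, had 0.279, 0.0694 and 1.35 CPM against 8.73, 4.26 and 18.7, highest in library 3 of both groups, where the neutrophil and monocyte marker sums were also highest; their part in it was not tested. Its rise of 4.24 ± 0.98 was not called without KO normoxia replicate 1.

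The stretches before the start of 4 genes that rose are shown because they carry the core of the hypoxia response element, ACGTG or GCGTG, which stands in capitals on either strand (read from the other strand it is CACGT or CACGC). Among members of the glycolysis and other hypoxia-induced lists with a promoter in the RefSeq table (build GRCm38.p6), which Hmox1 is not, they are the most raised of those holding a core, at the first such promoter of each gene. The Ankrd37 stretch (chr8:45999851-46000100, minus strand) covers the 250 bases before the start and holds 4 matches, of which those in the run of capitals in its middle overlap on opposite strands. Those of Aldoc (chr11:78323003-78323047, plus strand), Aldoa (chr7:126799356-126799400, minus strand) and Eno1 (chr4:150236458-150236502, plus strand) hold 1 match each. A match describes the letters and not binding.
Ankrd37: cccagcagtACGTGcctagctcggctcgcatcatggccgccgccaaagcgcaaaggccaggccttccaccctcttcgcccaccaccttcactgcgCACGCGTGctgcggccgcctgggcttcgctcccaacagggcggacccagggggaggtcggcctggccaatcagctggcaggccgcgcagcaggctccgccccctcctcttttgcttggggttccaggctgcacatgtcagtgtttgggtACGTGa
Aldoc: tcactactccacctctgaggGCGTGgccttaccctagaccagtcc
Aldoa: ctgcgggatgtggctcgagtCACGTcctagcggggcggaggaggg
Eno1: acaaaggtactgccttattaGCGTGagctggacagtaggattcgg

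From glucose uptake to lactate most genes rose in KO cells, several of them by less than in WT. Among glucose and lactate transporters 4 of 8 rose and 2 fell (median 0.39). Slc2a1, the main glucose importer, went from 20.4, 19.2 and 19.3 CPM to 51.3, 48.0 and 77.4 (1.58 ± 0.18), beside 2.54 in WT. Slc16a3, a lactate exporter, had 3.82, 9.72 and 12.5 CPM under normoxia and 84.1, 73.5 and 152 under hypoxia. It was lowest in KO normoxia library 1 and highest in KO hypoxia library 3, the KO libraries with the lowest and the highest summed neutrophil markers, whose part in its rise of 3.58 ± 0.45 was not tested. Slc2a6, a sugar transporter, fell by 0.95 in KO. Slc16a1, the monocarboxylate transporter MCT1, was the 1 member of the hypoxia lists with a larger response in KO than in WT. It had 148, 163 and 143 CPM in the KO normoxia libraries and 215, 215 and 222 after hypoxia, a rise of 0.53 ± 0.08, while WT gave -0.14 ± 0.08, and the responses differed by 0.66 ± 0.11 (edgeR adjusted p = 0.0192).

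From hexokinase to aldolase 8 of 10 enzymes rose (median 1.15 beside 2.12 in WT), and for 5 the difference from the WT response was called, each smaller in KO. Tpi1, the triose phosphate isomerase, had 60.5, 61.1 and 59.8 CPM in KO normoxia and between 234 and 338 in the 3 KO hypoxia libraries. WT went from 65.4, 81.1 and 59.7 CPM to 1490.1, 1342 and 938, so that the genotypes overlapped under normoxia and lay apart under hypoxia. KO rose by 2.18 ± 0.18 and WT by 4.19 ± 0.20, a difference of -2.01 ± 0.25 (edgeR adjusted p = 0.00509). Pfkl, a phosphofructokinase, went from 44.0, 43.4 and 44.99 CPM to 117, 124 and 172 in KO, a rise of 1.64 ± 0.14 that differed from WT by -1.55 ± 0.19. Aldoa, the main aldolase outside liver and brain, rose from 189, 201 and 187 CPM to 744, 721 and 889 and differed from WT by -1.01 ± 0.17 (edgeR adjusted p = 0.0214). Aldoc, the aldolase best known from brain, rose from 5.30, 4.72 and 4.04 to 43.9, 38.5 and 58.0 CPM, and its difference from WT, -0.94 ± 0.28, was not called (95% interval -1.55 to -0.32 before adjustment).

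From GAPDH to lactate 5 of 9 genes rose and 1 fell, with a median of 1.13 beside 2.34 in WT, and for each of the 5 that rose the response was called smaller in KO. Pgk1, which makes ATP from bisphosphoglycerate, had 104, 118 and 113 CPM under normoxia and 339, 355 and 564 under hypoxia. Its rise of 1.91 ± 0.20 stood against 3.66 ± 0.22 in WT, where the hypoxia libraries held 1884, 1572 and 1154 CPM. Ldha, which reduces pyruvate to lactate, went from 147, 139 and 149 to 309, 323 and 451 CPM in KO and from 179, 211 and 152 to 1741, 1541 and 1246 in WT. KO lay below WT in both conditions, by far more under hypoxia, and the responses of 1.32 ± 0.16 and 3.06 ± 0.17 differed by -1.74 ± 0.23 (edgeR adjusted p = 0.00597). The enolase gene Eno1 rose by 1.97 ± 0.15 against 3.40 in WT, the pyruvate kinase gene Pkm by 1.71 ± 0.16 against 2.97, and the mutase gene Pgam1 by 1.13 ± 0.12 against 2.34. Many glycolysis genes have near-identical pseudogenes, and how shared reads were counted is not stated, so these counts are uncertain to that extent.

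At the switch between glycolysis and mitochondria 3 of 14 genes rose and 3 fell (median 0.05), beside 14.5% and 15.7% of all genes tested. None fell without KO normoxia replicate 3. Pdk1, the kinase that turns off pyruvate dehydrogenase, had 26.8, 24.8 and 23.1 CPM in the KO normoxia libraries and 79.2, 71.3 and 108 after hypoxia. WT hypoxia libraries held 398, 334 and 303 CPM, each more than any KO library, and the responses differed by -1.85 ± 0.20 (edgeR adjusted p = 0.00227). Pdha1, which encodes a subunit of pyruvate dehydrogenase itself, rose by 0.47 ± 0.07, from 77.3, 82.3 and 77.8 to 113, 113 and 104 CPM. In glycogen metabolism 7 of 11 genes rose and 0 fell (median 0.59), and 3 rose without KO normoxia replicate 1. Ppp1r3b, a glycogen-targeting subunit of protein phosphatase, rose by 2.09 ± 0.29 in KO and 2.09 ± 0.28 in WT (95% interval of the difference -1.19 to 1.19), and the glycogen synthase gene Gys1 rose by 0.92 ± 0.17.

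**Figure D2:**
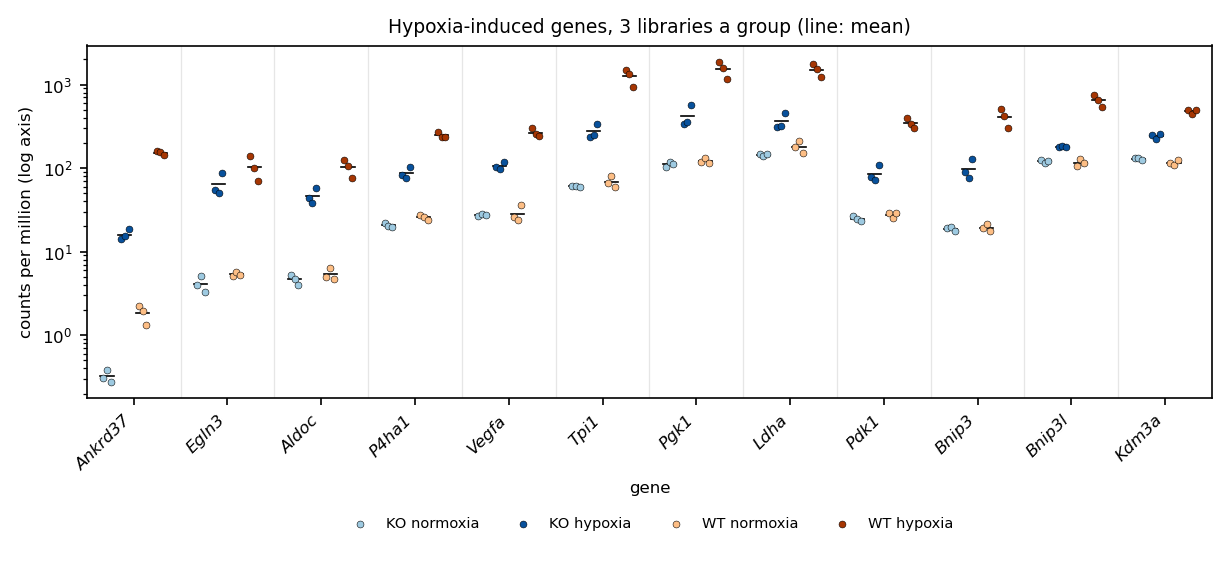
CPM of 12 hypoxia-induced genes on a log axis, 1 point for each of 3 libraries in KO normoxia, KO hypoxia, WT normoxia and WT hypoxia, with a line at the group mean. In KO the hypoxia libraries lie above the normoxia libraries for all 12 genes and below every WT hypoxia library for 11 of them, the exception being Egln3.

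Beyond glucose, genes of mitophagy, oxygen-dependent dioxygenases and secreted factors rose. Of 14 genes of mitochondrial remodelling and mitophagy 9 rose and 0 fell (median 0.68, 1.70 in WT). Bnip3, a mitophagy receptor, went from 19.1, 19.5 and 17.7 CPM to 90.5, 75.1 and 129, a rise of 2.39 ± 0.22 against 4.41 ± 0.24 in WT. Its relative Bnip3l went from 126, 115 and 121 CPM to 181, 185 and 176 in KO and from 105, 128 and 115 to 750.2, 654 and 539.9 in WT. Its rise of 0.58 ± 0.11 in KO against 2.49 ± 0.11 in WT gave the smallest adjusted p of all genes for a difference of responses (-1.91 ± 0.15, edgeR adjusted p = 0.000171). Of 19 histone and DNA demethylases that use 2-oxoglutarate and oxygen, 7 rose and 0 fell (median 0.24), 3 without replicate 1 of both KO groups. Kdm3a, a histone H3 demethylase, went from 130.2, 132 and 126 CPM to 250.1, 223 and 258 (0.92 ± 0.08, a difference from WT of -1.14 ± 0.11). Kdm5b rose by 0.79 ± 0.11, and Jmjd6 by 0.63 ± 0.12 with a difference from WT of -0.98 ± 0.16.

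Among 7 collagen prolyl and lysyl hydroxylases 5 rose, 3 without KO hypoxia replicate 3. Their KO median of 1.58 (0.68 in WT) was the value of P4ha3, which had 8, 1 and 3 counts against 9, 16 and 11 and was not called, while the median difference of the responses was -0.35. P4ha1, which encodes a catalytic subunit, had 21.7, 20.2 and 19.9 CPM under normoxia and 82.0, 75.9 and 103 under hypoxia, a rise of 2.08 ± 0.11 against 3.27 ± 0.12 in WT (edgeR adjusted p = 0.00509 for the difference). Plod2, a lysyl hydroxylase, rose by 1.71 ± 0.30, and P4hb, which encodes the shared second subunit, by 0.25 ± 0.07. Of 15 secreted and angiogenic factors 7 rose and 0 fell (median 0.93). Vegfa, the vessel growth factor, went from 26.5, 28.5 and 27.1 to 104, 98.0 and 119.9 CPM in KO, and its response differed from that in WT by -1.25 ± 0.19 (edgeR adjusted p = 0.0134). Mif, a cytokine gene, rose by 0.93 ± 0.17 against 2.55 in WT, a difference of -1.62 ± 0.25. Vegfb rose by 0.90 ± 0.13 beside 0.64 in WT, with an interval of the difference from -0.12 to 0.64. Epo, the classical secreted target of HIF-2α, had 1 count in each of 2 KO hypoxia libraries and none in the other 4 KO libraries, too few to test. Of 26 other hypoxia-induced genes 15 rose and 4 fell (median 0.62), with Narf, a gene for a nuclear lamina protein, at 0.91 ± 0.08 and the clock repressor Bhlhe41 at 1.42 ± 0.15.

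Over the 11 hypoxia lists, from oxygen sensing to the other hypoxia-induced genes, 75 of 148 distinct genes tested rose in KO and 10 fell, with a median of 0.52 beside 0.69 in WT. Of the 84 that rose in WT, 66 (78.6%) rose in KO, and 74 had a smaller log2 fold change in KO. Over all genes tested, 68.0% of the 2003 that rose in WT rose in KO, and 1254 had a smaller change in KO. The median of the 84 was 0.93 in KO and 1.72 in WT, and that of the 2003 was 0.59 and 0.74. In both sets the WT values chose the genes, which by itself favours smaller values in KO. The difference of responses was called for 24 of the 148, lower in KO for 23. KO hypoxia library 3 held the highest value among the KO hypoxia libraries for 61 of the 75 genes that rose (81.3%), against 31.8% of all genes tested. Without KO hypoxia replicate 3, 63 of the 148 rose, and over all single left-out KO libraries 61 to 76.

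The difference of the KO and WT responses, which asks how far a response went with genotype, was called for 73 genes (0.417%), 18 higher in KO (0.103%) and 55 lower (0.314%). With scaling factors set without immunoglobulin, haemoglobin and mitochondrial genes it was called for 92, 12 higher and 80 lower. Of the 55, 35 rose in both genotypes but by less in KO, and 12 rose in WT and were not called in KO. Fam162a, which encodes a mitochondrial protein, belonged to the first kind, with 8.71, 9.99 and 8.39 CPM in the KO normoxia libraries and 11.999, 14.4 and 19.9 after hypoxia (0.77 ± 0.24 against 2.66 ± 0.25 in WT). Cox4i2, which encodes an isoform of a cytochrome c oxidase subunit that hypoxia induces, belonged to the second, with 6, 7 and 16 counts in KO normoxia, 9, 13 and 20 in KO hypoxia and 159, 122 and 78 in WT hypoxia. How many genes were called rested on single libraries: 21, 38 or 43 without KO normoxia replicate 1, 2 or 3, and 18, 47 or 62 without KO hypoxia replicate 1, 2 or 3. Leaving out a WT library gave 20, 91 or 100 for normoxia replicate 1, 2 or 3 and 23, 25 or 224 for hypoxia replicate 1, 2 or 3. The last of these held 121 higher and 103 lower, so the lean to lower calls depended on which libraries entered, and at an unadjusted p under 0.05 with all libraries 943 of 1787 genes were higher in KO. A block on the replicate number gave same-numbered KO and WT libraries a shared effect. With it the difference was not called for Bnip3, Fam162a, Pgk1 and Ccl25 (edgeR adjusted p = 0.0686, 0.083, 0.071 and 0.0603). In all 12 fits that left out 1 library 14 genes were called, every one lower in KO. They were Abhd18, Ankzf1, Bnip3l, its pseudogene Bnip3l-ps, Grhpr, Kcnq5, Kdm3a, Ldha, Narf, P4ha1, Pdk1, Pfkfb3, Pfkl and Tpi1, a set picked out after its values were seen. Y-linked reads were present in WT replicates 1 and 2 under both conditions, absent from both WT replicates 3 and, in KO, present in hypoxia replicate 1 alone, so sex and genotype cannot be told apart in part of this comparison. The labels do not give the Cre status of the WT mice, and Cd79a, whose locus carries the Cre, had fewer counts in every KO library than in any WT library. Effects of the Cre or of Cd79a therefore cannot be told apart from loss of HIF-1α.

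None of the 18 genes with a higher response in KO was called in all 12 fits. Txnrd1, the cytosolic thioredoxin reductase, had 51.3, 51.2 and 60.4 CPM in the KO normoxia libraries and 177, 144 and 184 after hypoxia. In WT it had 75.2, 74.6 and 66.0 CPM and 112, 111 and 139, so that KO started lower and, in hypoxia, ended above WT. The rises of 1.63 ± 0.12 and 0.75 ± 0.11 differed by 0.89 ± 0.16 (edgeR adjusted p = 0.0309). Slc6a19, a neutral amino acid transporter, rose by 0.47 ± 0.14 in KO and fell in WT (-0.88 ± 0.15), and the ubiquitin ligase gene Trim37 rose by 0.47 ± 0.10 where it fell in WT (-0.32 ± 0.10). Dtx1, a Notch regulator, rose by 0.42 ± 0.10 where it fell in WT (-0.28 ± 0.10). The chemokine gene Ccl25 rose by 0.58 ± 0.12 and Tmem150a, a membrane protein gene, by 0.77 ± 0.11, with WT values of -0.30 and -0.20 that were not called. Map2k1, which encodes the kinase MEK1, had 108, 112 and 102 CPM in the KO normoxia libraries and 79.6, 86.5 and 103 after hypoxia, which overlap, and fell by 0.26 in KO where it rose by 0.54 in WT.

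Interferon-stimulated genes fell together in KO cells, as they did in WT, and made up most of the largest falls. All 26 tested antiviral genes fell (median -3.22, -2.70 in WT), as did all 15 interferon-inducible GTPases (median -2.48, -1.74 in WT) and 13 of 14 nucleic acid sensors (median -1.55, -1.26 in WT). Ifit3, which acts against viral RNA, had 397, 391 and 388 CPM under normoxia and 6.53, 2.77 and 14.0 under hypoxia, and fell by 5.66 (edgeR adjusted p = 3.03e-05). Iigp1, an immunity-related GTPase, had 116, 93.4 and 115 CPM against 2.02, 1.23 and 1.76 and fell by 6.02. Zbp1, a sensor of Z-form nucleic acid, had 341, 316 and 329.8 CPM against 11.7, 7.16 and 24.1 and fell by 4.52. For these 3 genes every normoxia library held more than 10 times the level of any hypoxia library. In the same group of largest falls, Ifit1 fell by 4.58, Ifit2 by 4.49, the guanylate-binding protein gene Gbp10 by 4.68 and Phf11a by 4.72, and Ifit3b, a near copy of Ifit3 that may share its reads, fell by 5.46. Ifit1bl1 was the 1 of the 10 with a response called different from WT, -5.19 ± 0.19 against -3.55 ± 0.17 (edgeR adjusted p = 0.0109). Sct, which encodes the hormone secretin, fell with them, from 4.13, 4.82 and 4.52 CPM to 0.244, 0.129 and 0.163.

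Stretches before the start of 3 of these genes are shown because they carry the core of the interferon-stimulated response element, written here as GAAA, any 2 bases and GAAA again, which stands in capitals as its reverse complement. They belong to the most fallen antiviral genes and GTPases whose RefSeq promoter (GRCm38.p6) holds it, Iigp1 not being among the sequences used here. The stretches of Ifit3 (chr19:34583353-34583436, plus strand) and Ifit3b (chr19:34607749-34607832, plus strand) are the same over all 84 bases, and each of these and that of Ifit1 (chr19:34640765-34640833, plus strand) holds 2 matches.
Ifit3: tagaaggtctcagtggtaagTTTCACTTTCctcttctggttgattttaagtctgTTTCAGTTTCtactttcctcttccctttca
Ifit3b: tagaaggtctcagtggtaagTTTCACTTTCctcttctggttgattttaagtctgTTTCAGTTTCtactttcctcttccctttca
Ifit1: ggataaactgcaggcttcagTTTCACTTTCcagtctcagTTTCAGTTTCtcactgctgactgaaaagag

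Upstream of these genes, 8 of 18 interferon ligands, receptors, STAT and IRF genes fell and 1 rose (median -0.15). Irf7, the regulator that amplifies interferon production, went from 692, 657 and 661 CPM in KO normoxia to 59.4, 43.9 and 105 in KO hypoxia, lowest in library 2 and highest in library 3, and fell by 3.27 (edgeR adjusted p = 7.78e-06). Stat2, which carries the interferon signal to the nucleus, fell by 1.23. Irf1, an activator of interferon genes, had 262, 269 and 253 CPM against 145, 166 and 167 and fell by 0.71. Ifnb1, the gene of interferon-β, had 13, 9 and 0 counts in KO normoxia and 0 in each KO hypoxia library, too few to test. Antigen presentation fell as well, by less. All 15 genes of MHC class I and peptide loading fell (median -0.86), with the peptide transporter Tap1 at 692, 694 and 673 CPM against 225, 208 and 287 and Tapbp, its link to class I, at -1.46 ± 0.08. Of 10 class II genes 9 fell (median -0.83), 6 without replicate 1 of both KO groups, among them H2-Aa at -1.20 ± 0.18 and their activator Ciita at -0.60 ± 0.10.

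Over the antiviral, GTPase, sensor and class I lists 69 of 70 genes fell in KO and 67 in WT, against 15.7% and 16.3% of all genes tested. The difference of responses, with a median of -0.49, was called by edgeR for 0 of the 70 and by DESeq2 for 1, and 14 had an unadjusted p under 0.05, 13 of them with the deeper fall in KO. Without a single KO library or without replicate 1 of both KO groups, 66 to 68 fell. KO hypoxia library 3 was highest among the KO hypoxia libraries for 56 of the 69 (81.2%), against 40.4% of all genes that fell. Markers of some other cells fell with them. Of 6 plasmacytoid dendritic cell markers 5 fell, and their summed CPM was 3333, 3182 and 2990 in KO normoxia and after hypoxia 1780.0, 1811 and 1770.0. Bst2 among them is itself interferon-stimulated and Irf8 is also used by B cells, while Siglech, the defining one, had 694, 632 and 557 CPM against 411, 394 and 399. Of 9 T and NK cell markers 3 fell, with summed CPM of 205, 222 and 219 against 53.6, 65.2 and 58.0. Those were Cd4 (-2.27 ± 0.16), Cd8a (-1.63 ± 0.15) and Cd3d (-1.15 ± 0.33), while Cd3e (0.43 ± 0.38) and Trac (-0.01 ± 0.36) were not called, and some dendritic cells carry CD4 or CD8α. In bulk RNA fewer cells of a type and less RNA per cell cannot be told apart, and the part of these cells in the interferon result was not tested.

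**Figure D3:**
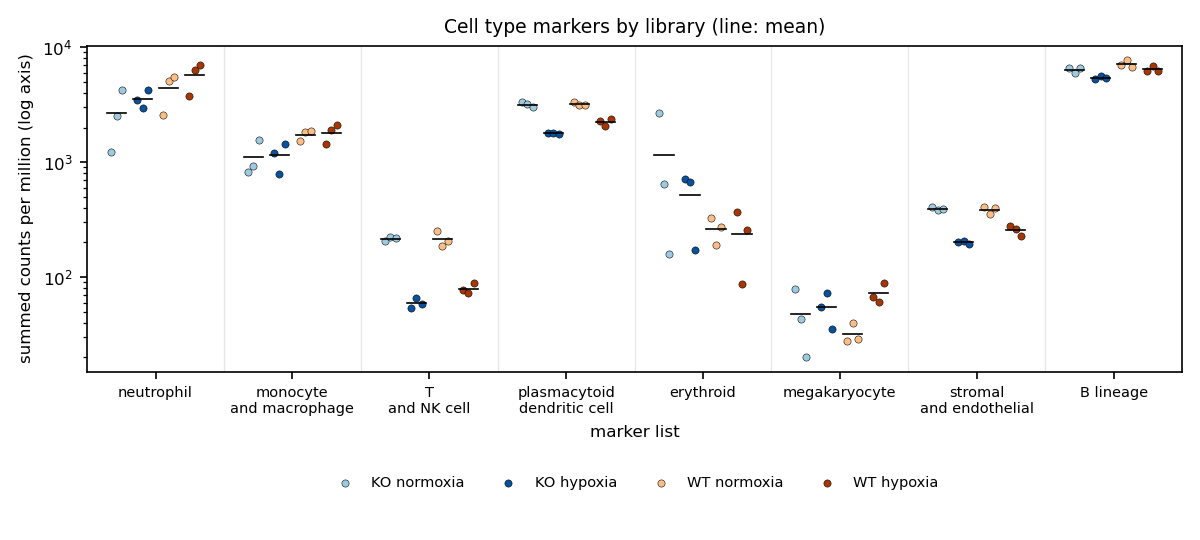
Summed CPM of 8 marker lists on a log axis, 1 point for each of 3 libraries in each of 4 groups, with a line at the mean. T and NK cell, plasmacytoid dendritic cell, stromal and endothelial, and B lineage sums are lower in KO hypoxia than in KO normoxia with no overlap, and the other 4 sums overlap.

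Other marker lists moved in both directions in KO. Of 5 tested stromal and endothelial markers 3 fell and 1 rose, and Kdr, a VEGF receptor, had 96.6, 103 and 82.8 CPM against 7.21, 5.87 and 6.33. Of 10 monocyte and macrophage markers 4 rose and 3 fell, 2 rising without KO normoxia replicate 1. Cd14, a coreceptor for lipopolysaccharide, rose by 2.32 ± 0.39 and Ly6c2, a marker of inflammatory monocytes, fell by 1.89. Of 11 neutrophil markers 2 rose and 0 fell. Of 7 erythroid and 5 megakaryocyte markers none was called: Hbb-bs, a β-globin gene, had 1466, 339 and 83.3 CPM against 379.9, 351 and 85.7, and the platelet chemokine gene Ppbp 33.3, 14.7 and 1.69 against 19.998, 27.3 and 7.84. Of 7 B lineage markers 2 fell, among them Pax5 (-0.42 ± 0.09), and 1 fell without KO normoxia replicate 1.

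Genes of the NRF2 pathway, which defends cells against oxidants, rose. Of 17 tested members 14 rose and 1 fell, with a median of 0.89 in KO and 0.75 in WT. Without replicate 1 of both KO groups 6 rose. Nqo1, a quinone reductase, had 0.670, 1.15 and 1.28 CPM in the KO normoxia libraries and 8.21, 6.64 and 8.49 after hypoxia, a rise of 2.92 ± 0.38 against 1.57 ± 0.37 in WT. That difference was not called (edgeR adjusted p = 0.38), and Txnrd1, described above, was the 1 member with a called one. Gclm, which encodes a subunit of the enzyme that starts glutathione synthesis, went from 19.2, 17.5 and 22.3 to 64.5, 45.5 and 69.0 CPM (1.60 ± 0.15). Prdx1, a peroxiredoxin, went from 169, 159 and 175 to 315, 308 and 308 CPM (0.89 ± 0.12). The cystine importer Slc7a11 had 6.75, 13.2 and 15.8 CPM against 45.6, 29.4 and 43.1, lowest in the normoxia library with the fewest neutrophil reads, and was not called without replicate 1 of both KO groups.

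Among 12 genes of iron uptake, storage and sensing 5 rose and 1 fell (median 0.27), 2 rising without replicate 1 of both KO groups. Ftl1, the ferritin light chain, which stores iron, went from 695, 790.3 and 858 CPM to 1537, 1430.0 and 1832, a rise of 1.03 ± 0.11 beside 0.48 in WT. Tfrc, the transferrin receptor, which takes iron up, was the one that fell, from 365, 366 and 391 to 279, 267 and 259.7 CPM.

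Amino acid genes rose while chaperones of the endoplasmic reticulum fell. Of 20 targets of ATF4, the transcription factor of the amino acid response, 13 rose and 0 fell (median 0.66, 0.46 in WT). Asns, the asparagine synthetase, had 14.5, 16.3 and 14.8 CPM under normoxia and 39.8, 38.7 and 42.2 under hypoxia in KO. Gpt2, a mitochondrial alanine transaminase, had 12.1, 13.3 and 9.67 and 32.8, 32.0 and 34.2, and the pseudokinase gene Trib3 9.55, 10.9 and 6.94 and 20.6, 25.7 and 24.2. The groups did not overlap for any of the 3. Of 13 amino acid transporters 7 rose and 1 fell (median 0.33), with the glutamine transporter Slc38a2 at 451, 467 and 382 CPM against 943, 1017 and 858 (1.12 ± 0.11), and 2 rose without replicate 1 of both KO groups. Of 20 cytosolic aminoacyl-tRNA synthetases 10 rose and 3 fell (median 0.11). Sars, for serine, rose by 0.70 ± 0.09, and Wars, for tryptophan and known to be interferon-induced, fell by 0.74.

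In contrast 14 of 21 genes of folding in the endoplasmic reticulum and the unfolded protein response fell and 0 rose (median -0.35, -0.35 in WT), 9 without replicate 1 of both KO groups. Hspa5, the chaperone BiP, had 568, 529 and 551 CPM against 329, 378 and 337 with no overlap (-0.66 ± 0.09), and Calr, which encodes calreticulin, fell by 0.84. Among 14 heat shock genes 5 rose and 0 fell (median 0.22). Hspa1a, which encodes an inducible HSP70 and has a near-identical neighbour, had 0.837, 0.451 and 0.345 CPM against 1.92, 1.84 and 2.38 (1.88 ± 0.35), and Hsf2, a heat shock factor, rose by 0.90 ± 0.11. Of 21 genes of cholesterol synthesis and uptake 3 fell and 0 rose (median -0.01), a share near that of all genes, led by the mevalonate kinase gene Mvk (-1.54 ± 0.17).

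**Figure D4:**
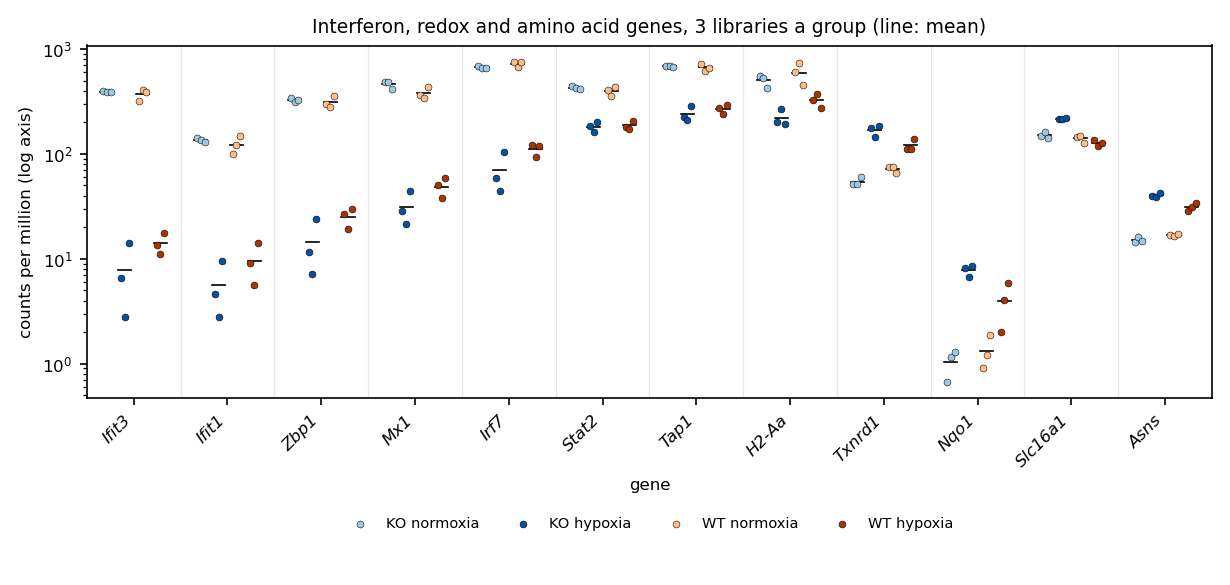
CPM of 12 interferon, antigen presentation, redox and amino acid genes on a log axis, 1 point for each of 3 libraries in each of 4 groups, with a line at the mean. In KO the first 8 genes, Ifit3 to H2-Aa, are lower in every hypoxia library than in any normoxia library, and Txnrd1, Nqo1, Slc16a1 and Asns are higher in every hypoxia library.

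Replication genes fell in KO, and no mitotic gene was called lower there in the main fit. Of 24 genes of DNA replication 19 fell and 0 rose (median -0.55, -1.04 in WT). Gins2, part of the replicative helicase, had 8.21, 10.4 and 9.15 CPM in the KO normoxia libraries and 3.97, 3.97 and 3.69 after hypoxia (-1.26 ± 0.17). Mcm5, another part of it, had 99.4, 115 and 109.9 and 58.5, 62.0 and 53.7 (-0.89 ± 0.11), and the ligase gene Lig1 fell by 0.94. Of 20 mitotic genes 0 fell and 1 rose (median -0.01, -0.38 in WT), the kinesin gene Kif11, which was not called without any 1 of 5 KO libraries. With the KO libraries alone 2 fell. In WT 10 of the 20 fell, but the difference of responses was not called for any of the 20. Of 14 genes of the Myc network 3 fell and 1 rose (median -0.13), together a share near the 30.3% of all genes tested. Myc itself had 33.7, 33.1 and 26.2 CPM against 14.8, 22.4 and 12.9 (-0.89 ± 0.18), and Mxi1, a Myc antagonist known as a HIF target, rose by 0.59 ± 0.11. Of 21 ribosome biogenesis genes 8 fell and 1 rose (median -0.22), 3 falling without KO normoxia replicate 2.

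Nuclear respiratory genes changed little. Of 20 genes of complex I 4 fell and 1 rose (median -0.17), 1 falling without KO normoxia replicate 1, and of 23 genes of complexes II to V and cytochrome c 2 fell (median -0.12), 0 without KO normoxia replicate 2. Ndufv1, which encodes the NADH-binding subunit of complex I, fell by 0.57. Of 14 mitochondrially encoded transcripts 7 fell and 2 rose (median -0.58), and 0 fell without KO normoxia replicate 1. The ribosomal RNA mt-Rnr1 went from 451, 383 and 430.5 CPM to 711, 782 and 561 and the messenger RNA mt-Cytb from 3368, 2930.5 and 2469 to 1791, 2298 and 1233, in opposite directions and with no overlap. All mitochondrially encoded genes together held 20257, 18063 and 15815 CPM in the KO normoxia libraries and 14419, 17037 and 10767 after hypoxia, which overlap.

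Targets of p53 rose, and genes of the BCL2 family moved both ways. Of 13 p53 targets 8 rose and 0 fell (median 0.55, 0.26 in WT), 4 without replicate 1 of both KO groups. Gadd45a, a stress sensor, had 13.2, 11.6 and 10.5 CPM against 34.7, 29.8 and 29.5 (1.41 ± 0.19), and Mdm2, the ubiquitin ligase of p53, rose by 0.34 ± 0.06. Among 18 BCL2 family genes 4 rose and 5 fell (median 0.18), 1 falling without KO normoxia replicate 2. The 4 that rose all promote death. Bcl2l11, which encodes BIM, went from 66.0, 65.0 and 58.0 CPM to 125, 123 and 114 (0.94 ± 0.08), and Bbc3, which encodes PUMA, from 22.6, 24.98 and 15.9 to 44.5, 56.0 and 49.4 (1.24 ± 0.15), with Bax and Bmf at 0.74 ± 0.10 and 0.66 ± 0.10. The 5 that fell held death and survival genes alike, Bcl2 among the latter (-0.63 ± 0.13). Of 23 immediate early and NF-kB genes 3 fell and 1 rose (median 0.02), smaller shares than the 15.7% and 14.5% of all genes tested. Cd69, an activation antigen, stood at -0.44 ± 0.10, and 1 gene of the list fell without KO normoxia replicate 1.

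B-lineage transcription factors and B cell receptor genes moved in both directions, in numbers near those of all genes. Of 18 B-lineage transcription factors 3 rose and 4 fell (median 0.07), with Irf8 from 1321, 1291 and 1141 CPM to 704, 769 and 702 (-0.79 ± 0.09) and Bcl6, the germinal centre repressor, at 0.38 ± 0.08. Of 18 genes of the B cell receptor and its signalling 3 rose and 4 fell (median -0.14), 1 rising without KO normoxia replicate 3 and 2 falling without KO normoxia replicate 1, and the kinase gene Blk stood at -0.39 ± 0.07. The pre-B receptor and V(D)J list had 5 of 17 lower and 1 higher (median -0.36), a larger lower share than the 15.7% of all genes tested. Without replicate 1 of both KO groups 6 were lower. Its surrogate light chain gene Igll1 had 138, 114 and 95.4 CPM against 59.2, 50.9 and 40.6, and Vpreb1, its partner, 98.4, 79.1 and 70.7 against 45.2, 33.0 and 31.0, both with no overlap. The Ku genes of DNA end joining went apart, Xrcc6 rising by 0.84 ± 0.10 and Xrcc5 falling (-0.72 ± 0.11).

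Of 15 retention, egress and homing receptors 5 rose and 3 fell (median 0.02). S1pr1, the receptor that leads lymphocytes out of tissue, had 111, 104 and 96.0 CPM against 178, 171 and 183 and rose by 0.78 ± 0.09. Ccr9, a gut homing receptor that plasmacytoid dendritic cells also carry, fell by 1.31. Among 9 genes of plasma cells 5 rose and 3 fell (median 0.27), 3 rising without KO normoxia replicate 3. Prdm1, which encodes the plasma cell regulator BLIMP-1, rose by 1.00 ± 0.13, and Jchain, which joins secreted IgM, fell by 1.06.

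Factors by which B cells act on osteoclasts, the bone-resorbing cells, were among the study's questions. Of 14 tested cytokines of that kind and TNF family members 6 fell and 0 rose in KO (median -0.17). Csf1, a growth factor for osteoclast precursors, had 60.3, 57.5 and 52.1 CPM against 18.6, 14.0 and 19.1 and fell by 1.72, beside -1.60 in WT. Tnf had 11.8, 12.6 and 14.1 CPM against 4.12, 2.90 and 4.995 (-1.68 ± 0.20), and Tnfsf10, the death ligand TRAIL, which interferon induces, fell by 2.33. Tnfsf11, which encodes RANKL, had 6, 7 and 3 counts in the KO normoxia libraries and 2, 3 and 6 after hypoxia, and WT had 4, 7 and 0 and then 2, 3 and 9, counts that overlap between the conditions in both genotypes. It had too few reads to test. The study reports a rise of RANKL in WT B cells under hypoxia that was much smaller or absent without Hif1a. It draws on RNA-seq, quantitative RT-PCR and flow cytometry, and on ChIP and reporter assays for HIF-1α at the gene. Its RNA-seq compared the groups counted here, so that part is not evidence apart from these counts. Counts this low can neither bear that out nor go against it.

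Of 16 circadian clock genes 10 rose and 0 fell (median 0.48, 0.58 in WT). Nfil3, a repressor that opposes the PAR bZIP activators, went from 3.52, 4.20 and 4.18 to 13.6, 9.16 and 14.6 CPM (1.65 ± 0.17), and Nr1d2, a nuclear receptor of the clock, rose by 0.93 ± 0.13. Ciart, a clock repressor, rose by 1.37 ± 0.19 with a response below that in WT, the difference being -1.62 ± 0.26 (edgeR adjusted p = 0.0172).

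**Figure D5:**
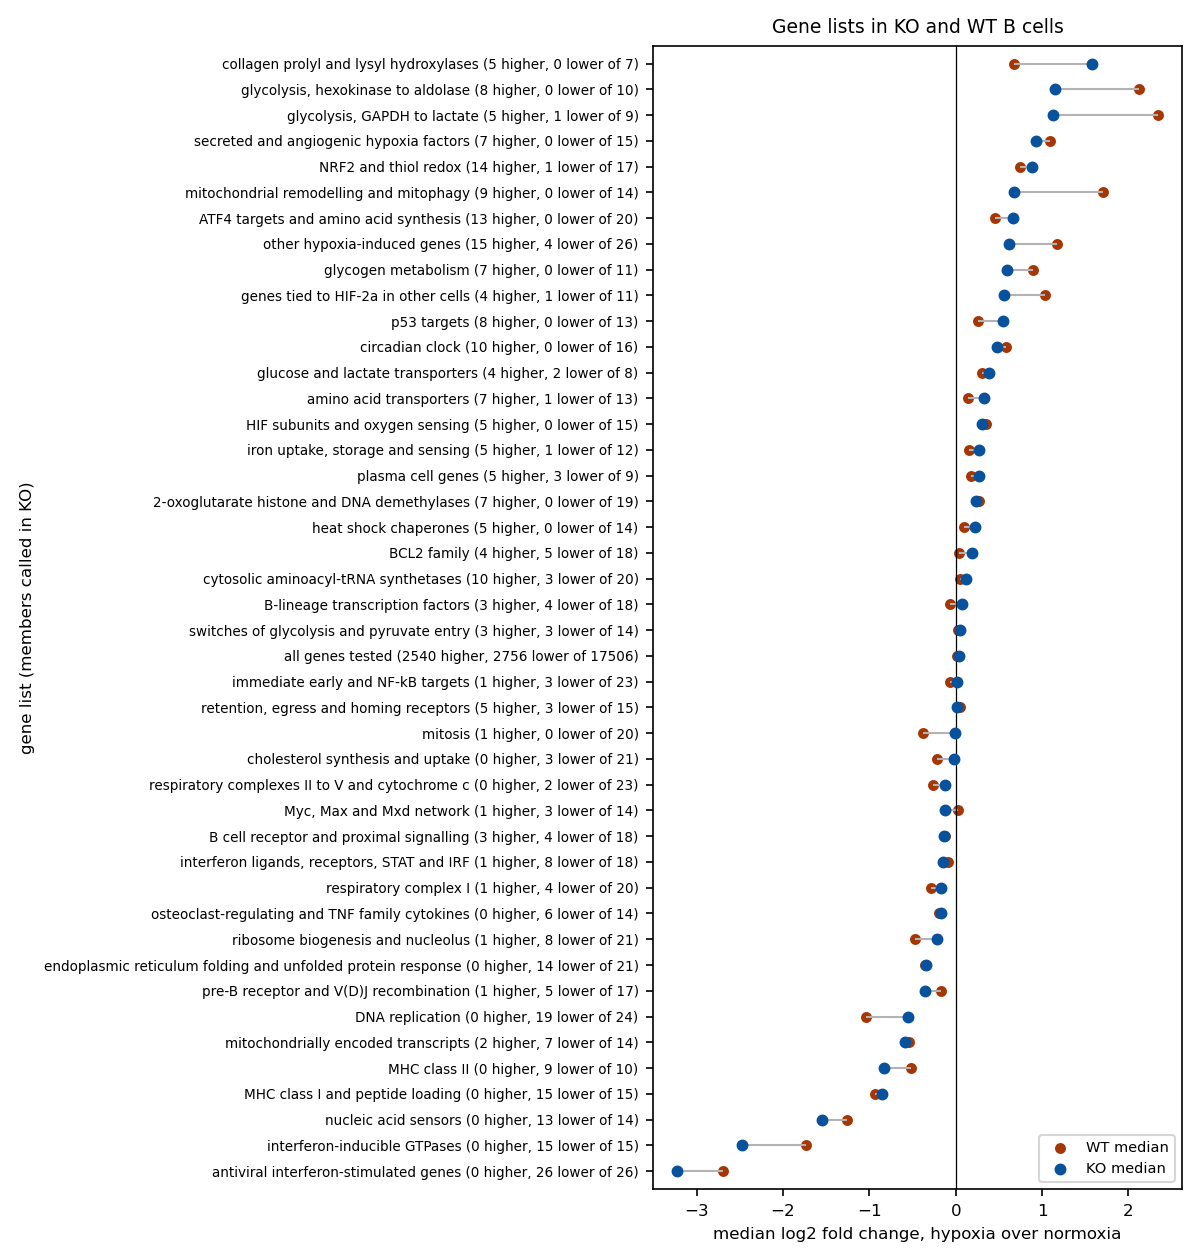
Median log2 fold change (hypoxia over normoxia, x axis) of each gene list in KO and in WT, with the members called in KO in brackets. The antiviral, GTPase and sensor lists lie lowest in both genotypes, and WT lies above KO by most in the lists of GAPDH to lactate, mitophagy and hexokinase to aldolase among those raised in KO, with KO medians of 1.13, 0.68 and 1.15 against 2.34, 1.70 and 2.12.

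Promoter letters were described over 250 bases before and 50 after each start in the RefSeq table, for protein-coding genes off chromosome 18, of which 81.8% matched by symbol or synonym. The hypoxia core ACGTG or GCGTG contains a CpG and is common. It stood in 59.5% of the promoters of genes tested, in 61.7% of those of genes that rose in KO and in 56.7% of those that fell. Of genes that rose by an estimated more than 2-fold only 75.4% matched. The core stood in 51.9% of their promoters, a share below that of all genes tested, and with so many genes unmatched it decides nothing. In the genes that rose in KO by less than in WT the core stood in 30 of 40 promoters (75.0%). In the glycolysis lists, which share genes with that set (Tpi1, Pfkl and Ldha among them), it stood in 23 of 30 (76.7%). The interferon core, GAAA, any 2 bases and GAAA, stood in 3.2% of promoters of genes tested, 1.9% of those that rose and 6.62% of those that fell, and in 21 of 32 (65.6%) of the antiviral and GTPase lists. The ATF4 core TGATGNAA stood in 2.44% of promoters of genes tested, 2.39% of those that rose, 2.7% of those that fell and 6 of 19 (31.6%) of the ATF4 list. Both strands were searched, several promoters can belong to 1 gene, and the shares are descriptions with no test.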

How the data were processed

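Gene expression was measured by RNA-seq in 12 libraries of bone marrow B cells, 3 for each of KO normoxia, KO hypoxia, WT normoxia and WT hypoxia, and groups and replicate numbers were taken from the labels. The authors deposited raw read counts per gene for 46983 genes, not normalized. Their notes name CASAVA, Bowtie 0.12.2 and the mm10 build. The counter, its handling of shared reads, its strand setting and the annotation release are not stated, so reads of overlapping, antisense or near-identical genes cannot be told apart. Of the gene IDs 495 had no symbol in the reference annotation, and coordinates come from that annotation (GRCm38, the same assembly as mm10).

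Counts were analysed in R 4.3.3 with edgeR 4.0.16 (filterByExpr, TMM factors, robust quasi-likelihood test, 4 group means, all 12 libraries sharing 1 spread), with contrasts for KO, WT and KO minus WT and Benjamini-Hochberg adjustment over 17506 genes. The 29477 genes left out by the filter held 0.0738% of reads. SE was taken from the F statistic, and 95% intervals are unadjusted. On simulated counts for the KO comparison (17124 genes) 48%, 78% and 94% of genes changed 1.5-fold, 2-fold and 4-fold and 56% of genes halved were recovered, and 19 of 16924 unchanged genes were called. Only 200 genes were changed there, while 5296 were called in the data. An adjusted p of 0.05 then asks for a smaller unadjusted p, so these shares do not carry over to the data.

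The 51 gene lists (772 entries, 740 distinct genes, 1 entry without a match) and the genes to name were chosen with earlier results of these data known. Named were Hif1a and Cd79a, up to 4 called members of each list by smallest adjusted p (in a list with none called, up to 2 by highest mean CPM), the 10 largest rises and falls and the 8 largest differences of responses in each direction (mean of at least 1 CPM in the higher KO group, KO groups not overlapping, no predicted models, pseudogenes or immunoglobulin segments), and 6 genes called in opposite directions. Abhd18, Ankzf1, Bcl2, Bnip3l-ps, Cd3e, Cox4i2, Grhpr, Kcnq5, P4ha3, Pfkfb3, Siglech, Trac and the untested Epo, Ifnb1 and Tnfsf11 lie outside this rule and were chosen after their values were seen. Alternatives were DESeq2 1.42.0, RLE factors, scaling without immunoglobulin, haemoglobin and mitochondrial genes, other filters, the KO libraries alone, a replicate block, a test against a 2-fold change and leaving out each library. Results for some genes are not reported here.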

Additional observations from a re-analysis of the deposited data

Results flagged for a closer look

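The responses of KO and WT cells to hypoxia differed by a test of the difference itself for the 18 named genes below, each given as the KO minus WT difference in log2 fold change (edgeR, adjusted p below 0.05, 3 libraries a group). The difference was positive for Slc6a19 (1.35), Tmem150a (0.97), the UDP-N-acetylglucosamine pyrophosphorylase relative Uap1l1 (0.90), Txnrd1 (0.89), Ccl25 (0.88), Trim37 (0.79), Dtx1 (0.70), the tubulin gene Tubb2b (0.67) and the centrosomal protein gene Fgfr1op (0.61). It was negative for Bnip3 (-2.02), Tpi1 (-2.01), Bnip3l (-1.91), Fam162a (-1.88), Pdk1 (-1.85), Pgk1 (-1.75), Ldha (-1.74), Ifit1bl1 (-1.64) and Map2k1 (-0.80). With the replicate number as a block shared across genotypes, the difference was not called for Bnip3, Fam162a, Pgk1 and Ccl25. Of these 18 genes Bnip3l, Ldha, Pdk1 and Tpi1 were called without each of the 12 libraries in turn. Groups of 3 libraries are too small for the test of single far-off samples used in such data, so none was run.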

How the results depend on the processing

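Among the genes named by rule, no direction reversed where the gene was called in the main fit or in the alternative. Sign changes of genes called in neither were not counted. For the KO response, fits without a WT library were not part of that check. Among calls shared between settings none changed sign. For the KO response the test against a 2-fold change called 377 genes (100 higher, 277 lower) and leaving out replicate 1 of both KO groups 2706 (1016 higher, 1690 lower), while the other settings with all 6 KO libraries gave 4919 to 6125. Leaving out 1 KO library gave 3770 to 5126 genes (1740 to 2928 higher, 2030 to 2198 lower), and 3158 of the 5296 (59.6%) were called without each of the 6. Of the distinct list members 381 were called, 313 to 360 without 1 KO library and 93 against a 2-fold change. For the difference of responses, with 73 calls, no filter on low counts gave 194 (50 higher, 144 lower), DESeq2 295 (106 higher, 189 lower), the edgeR test against a 2-fold change 0 in all (0 higher, 0 lower, with 117 at an unadjusted p under 0.05) and leaving out replicate 1 of both KO groups 8 (0 higher, 8 lower). Leaving out 1 library gave 18 to 224 (0 to 121 higher, 17 to 103 lower); the cause was not tested. Of the 207 genes named by rule, those not called included, 206 kept their side of the threshold in KO with DESeq2, 193 with no filter, 187 to 199 without 1 KO library, 170 without replicate 1 of both KO groups and 75 against a 2-fold change. Of the 18 with a called difference, 18 kept it with DESeq2, 3 without replicate 1 of both KO groups and 0 against a 2-fold change. With 2 libraries left in a group, their spread was assumed to be like that of the other groups.

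The replicate block gave 5903 calls for the KO response and 79 for the difference, and the calls of Bnip3, Fam162a, Pgk1 and Ccl25 for the difference were lost. The block tied same-numbered KO and WT libraries together, which the labels do not do, so these lost calls are no test of pairing. In KO, deviations of same-numbered libraries had r of 0.074, 0.101 and 0.361, and those of different-numbered ones ranged from -0.378 to 0.273. The last was KO normoxia replicate 1 with KO hypoxia replicate 2. In WT the values were 0.388, 0.573 and 0.587 against -0.5 to -0.014. Same-numbered libraries thus deviated together in WT and less clearly in KO. Across the study the number is not a pairing shown by the data.

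With 3 libraries a group small changes can go uncalled, so a gene not called is not shown to be unchanged. How often this happened in the data is not known, since the simulated counts held far fewer changed genes. Purified cells were measured in bulk and reads of other cells were present, and KO cells other than B cells kept Hif1a, so a response in KO cannot be assigned to one cell type.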

Other observations

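The following genes were chosen after their values were seen. In all 5 genes fell in WT and were not called in KO, with a called difference of the responses. Ctps, a CTP synthase, had 855, 695 and 723 counts under KO normoxia and 826, 806 and 682 under KO hypoxia, which overlap, and its response differed from that in WT by 1.02 ± 0.16 (edgeR adjusted p = 0.0147). The same difference was 0.82 ± 0.15 for Bysl, a ribosome assembly gene, 0.75 ± 0.14 for Nup93, a nuclear pore gene, 1.00 ± 0.19 for E2f8, a cell cycle repressor, and 0.55 ± 0.11 for Sfmbt1, a chromatin repressor. With 1 of the 12 libraries left out in turn the difference was called in 8 fits for Ctps, 4 for E2f8 and Sfmbt1 and 3 for Bysl and Nup93.

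Hmox1, the haem-degrading oxygenase, had 762, 643 and 1962 counts in KO under normoxia and 8609, 3935 and 11295 under hypoxia. Every hypoxia library was above every normoxia library, and the rise was 2.77 ± 0.59 (edgeR adjusted p = 0.00784), beside 1.66 ± 0.56 in WT, which was not called. The difference of the responses was not called either (edgeR adjusted p = 0.718). Hif3a, a HIF subunit gene, was called in WT (2.43 ± 0.81) and not in KO, where it had 5, 3 and 13 against 18, 11 and 35 counts, and the difference of -0.87 ± 1.17 was not called.

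Gapdh counts were low for a gene that cells express strongly and uneven between replicates. WT normoxia held 219, 226 and 995 counts and WT hypoxia 1109, 977 and 3767, with replicate 3 highest in both, and KO held 240, 204 and 187 and then 385, 321 and 546. The KO value of 0.98 ± 0.66 was not called (edgeR adjusted p = 0.303) although the KO groups did not overlap.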
